A study of Mus musculus with 2 samples.

Results

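The 10 heat shock protein genes described here are *Hspa1a*, *Hspa1b*, *Hspa8*, *Hspa5*, *Hspb1*, *Hsp90aa1*, *Hsp90ab1*, *Dnajb1*, *Hsph1* and *Hspa2*. They were picked one by one by their symbols, and all 10 were among the 32285 genes counted. Single-cell RNA sequencing was performed on digested testes at postnatal day (PD) 7, with 1 library from a control mouse and 1 library from a *Brca1* vKO mouse. The *Brca1* vKO mouse is *Brca1* f/- *Vasa-Cre*: one *Brca1* allele is null in the whole body and the other is removed by a Cre that is active in germ cells, so its somatic cells carry 1 intact allele. Controls were littermates, and their exact alleles are not given in the labels. More *Brca1* vKO cells were loaded, because these testes are small. With 1 mouse per genotype there is no replicate check, so that genotype, mouse, digestion and library cannot be told apart. No test between the libraries was made. All intervals are 95% intervals that cover counting error only.

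Heat shock proteins are chaperones that hold unfolded proteins and help them fold. HSP70 proteins (*Hspa1a*, *Hspa1b*, *Hspa8*, *Hspa2*, and *Hspa5* in the endoplasmic reticulum) bind short stretches of their clients in cycles driven by ATP. J-domain proteins such as DNAJB1 start this cycle, and HSPH1 helps it by exchanging nucleotide. HSP90 proteins (*Hsp90aa1*, *Hsp90ab1*) finish the folding of many kinases and receptors, and the small chaperone HSPB1 holds unfolded proteins without ATP. Some of these genes are always on, whereas *Hspa1a*, *Hspa1b*, *Dnajb1* and *Hsph1* are classical targets of heat shock factor HSF1, whose binding site is the heat shock element. Warm digestion of a tissue is itself known to switch on such genes and the immediate early genes. On GRCm38, in the GENCODE annotation, *Hspa8* lies at chr9:40800984-40810087, *Hspa5* at chr2:34771970-34777547, *Hspb1* at chr5:135887919-135889563, *Dnajb1* at chr8:83608193-83612653 and *Hspa2* at chr12:76404176-76406938, all on the plus strand. *Hsp90aa1* at chr12:110690605-110702728, *Hsp90ab1* at chr17:45567775-45573271 and *Hsph1* at chr5:149614287-149636376 are on the minus strand, as is the pair *Hspa1a* and *Hspa1b*, described further on. *Hspa8* has small nucleolar RNA genes within its bounds, and *Hspa1a* overlaps the gene *Gm20481* on the other strand.

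The control library held 5812 barcodes and 120568700 counted molecules (unique molecular identifiers, UMIs), and the *Brca1* vKO library held 9456 barcodes and 165062097 UMIs. After removal of barcodes with fewer than 750 genes or more than 10% mitochondrial UMIs, 5077 control and 8712 vKO cells remained, with medians of 16917 and 12970.5 UMIs. The libraries shared 21 barcode sequences. Clusters were named by markers, with the 10 genes and related stress genes left out of the clustering, and each class is called "like" its cell type. Germ cells (*Ddx4* 353 to 427 CPM in the 2 named control germ classes and at most 4.41 CPM in Sertoli-, stromal-, myoid- and Leydig-like cells) were split by *Gfra1* and *Ret*, found in undifferentiated spermatogonia, and by *Kit* and *Stra8*, found in differentiating ones. CPM is the UMIs of a gene per 1000000 UMIs of the class. The marker lists of these classes summed to 8382 and 8459 CPM in Sertoli-like, 7888 and 7443 CPM in stromal-like, 11393 and 10038 CPM in myoid-like and 5878 and 6887 CPM in Leydig-like cells of the control and vKO library, with no marker at 0 in its own class. In the vKO KIT/STRA8 germ cells *Gfra1* was at 152 CPM, against 17.7 CPM in control, beside *Stra8* at 311 and 364 CPM. There were 368 control and 202 vKO GFRA1/RET germ cells, 265 and 14 KIT/STRA8 germ cells, 2015 and 4157 Sertoli-like, 855 and 1982 stromal-like, 555 and 1414 myoid-like, and 47 and 112 Leydig-like cells. The other classes compared were 73 and 10 germ cells low in both pairs of markers, 363 and 49 germ barcodes under 10000 UMIs, and 27 and 36 endothelial-like cells. A neutrophil-like cluster (51 and 142 cells) and a pericyte-like cluster (48 and 69 cells) were also named. Orders of classes given below leave these clusters out unless they are mentioned. *Brca1* itself, the targeted gene, was at 68.7 CPM in control and 42.7 CPM in vKO GFRA1/RET germ cells, that is, 0.621 of the control level (interval 0.550 to 0.700). For the 14 vKO KIT/STRA8 germ cells this value was 0.920 (0.662 to 1.25), and for somatic cells, where Cre should be inactive, 0.864 (0.812 to 0.920) in Sertoli-like, 0.526 (0.450 to 0.615) in stromal-like, 0.733 (0.501 to 1.08) in myoid-like and 1.61 (0.752 to 3.82) in Leydig-like cells. According to the paper, Cre removes part of the exons, and BRCA1 protein was lost in germ cells. UMIs per gene do not tell which exons a transcript holds, so these values do not measure how complete the deletion was.

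The first question was which levels set a cell class apart in both libraries. Both testes were digested, and the part of a response to digestion in these levels was not tested. Among the classes compared, clear examples were *Hspb1* in Sertoli-like cells and *Hsp90aa1* and *Hsph1* in germ cells. Others were *Hspa5* in stromal-, myoid- and Leydig-like cells, and *Hspa2* in myoid-like cells. Between GFRA1/RET germ cells and Sertoli-like cells of the control library, 1 of 10 genes was at least 2-fold higher in the germ cells (*Hsp90aa1*) and 2 were at least 2-fold lower (*Hspa1a*, *Hspb1*). Of all genes with at least 50 UMIs, 29.4% were 2-fold higher and 23.4% lower. In the vKO library 2 were higher (*Hsp90aa1*, *Hsph1*) and 4 lower (*Hspa1a*, *Hspa1b*, *Hspb1*, *Hspa2*), against 26.2% and 25.3% of all genes. With 10 genes these counts are a description. Between KIT/STRA8 and GFRA1/RET germ cells none of the 10 genes passed 2-fold in either library, against 6.26% of all genes higher and 6.5% lower in the control library and 3.11% and 10.8% in the vKO library.

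**Figure D1:**
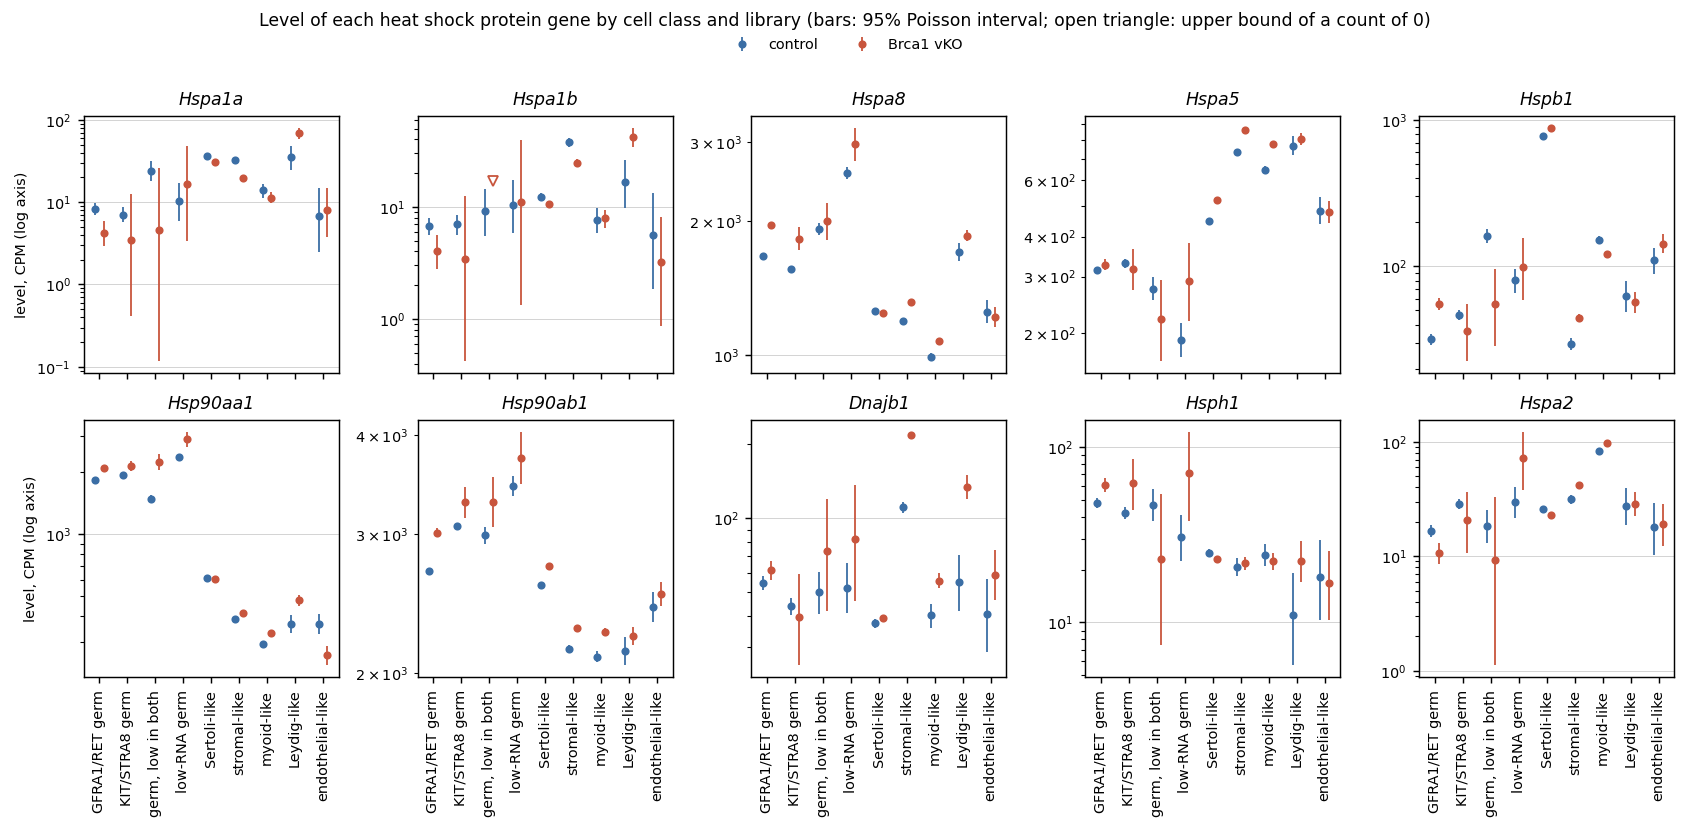
Level of each of the 10 genes in CPM (log axis, scaled per panel) in 9 cell classes, with control in blue and *Brca1* vKO in red. Bars are 95% Poisson intervals, the open triangle is the upper bound of a count of 0, and low-RNA germ are the germ barcodes under 10000 UMIs. *Hspb1* stands highest in Sertoli-like cells, at 771 CPM in control and 877 CPM in vKO, and *Hsp90aa1* is higher in all 4 germ classes, from 1491 CPM upward, than in any somatic class, where it reaches at most 611 CPM.

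*Hspb1* encodes a small chaperone that also binds actin. Its level in Sertoli-like cells was 771 CPM (763 to 778) in control and 877 CPM (871 to 883) in vKO. In the control library, that was 24.3-fold (22.4 to 26.4) the level of GFRA1/RET germ cells and 26.1-fold (23.7 to 28.8) that of stromal-like cells. A UMI of *Hspb1* was found in 98.9% of control and 99.6% of vKO Sertoli-like cells. After each cell was thinned to 2000 UMIs the shares were 74.2% and 79.3%. Myoid-like cells had 152 CPM in control and 121 CPM in vKO, and endothelial-like cells 110 and 143 CPM. The control germ cells low in both pairs of markers were as high as myoid-like cells, at 162 CPM, and also held Sertoli markers at 18.3% of the Sertoli-like level. Both Sertoli-like clusters carried the gene, at 871 CPM in the larger control cluster and 595 CPM in the one led by cell cycle genes such as *Ube2c* and *Cdk1*, where the vKO values were 1006 and 696 CPM.

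Outside Sertoli-like cells, the level of *Hspb1* was read beside the 7 Sertoli markers (*Sox9*, *Amhr2*, *Rhox8*, *Clu*, *Amh*, *Aard*, *Hsd17b1*), since free RNA and doublets can bring such transcripts into droplets of other cells. In control GFRA1/RET germ cells *Hspb1* stood at 4.12% of its Sertoli-like level and the summed markers at 4.22% of theirs. In the vKO germ cells the values were 6.35% and 5.72%. Both quantities were also near each other in stromal-like cells, at 3.84% and 3.01% in control and 5.07% and 4.38% in vKO. How much of *Hspb1* in these classes came with Sertoli-like RNA was not tested. KIT/STRA8 germ cells had 6.04% and 6.35% in control and, over 14 cells, 4.13% and 2.35% in vKO. Myoid-like cells were different, with *Hspb1* at 19.8% of its Sertoli-like level in control against 2.73% for the markers, and at 13.8% against 4.0% in vKO. Endothelial-like cells were also above, at 14.2% against 4.98% in control and 16.3% against 7.81% in vKO. The control value rests on 97 UMIs in 27 cells, 33 of them in 1 cell, and this class also held germ markers (*Ddx4* at 40.8 CPM in control and 2.39 CPM in vKO) and the pericyte marker *Rgs5* (162 and 200.03 CPM), whose part was not tested.

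**Figure D2:**
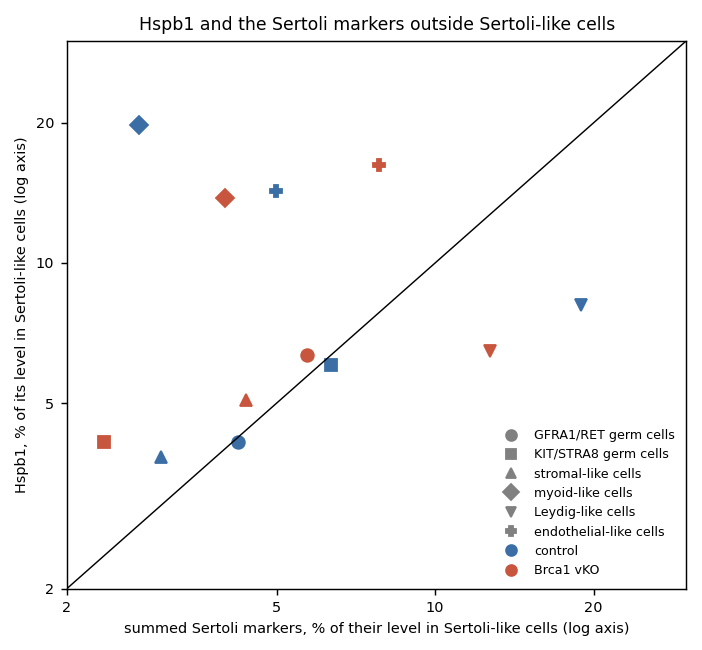
*Hspb1* outside Sertoli-like cells, as a percentage of its Sertoli-like level (y axis, log), against the summed level of 7 Sertoli markers as a percentage of theirs (x axis, log), with equality as the black line. Symbols are cell classes, blue is control and red is *Brca1* vKO. GFRA1/RET germ and stromal-like cells lie near the line, myoid- and endothelial-like cells lie above it (19.8% against 2.73% in control myoid-like cells), and Leydig-like cells lie below it.

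*Hsp90aa1*, the inducible HSP90, was at 1834 CPM (1814 to 1854) in control and 2095 CPM (2064 to 2126) in vKO GFRA1/RET germ cells. KIT/STRA8 germ cells had 1937 and 2139 CPM. Sertoli-like cells had 611 and 608 CPM, so that the germ level was 3.0-fold (2.95 to 3.05) theirs in control and 3.45-fold (3.39 to 3.51) in vKO. Myoid-like cells were lowest among the main classes, at 292 and 333 CPM. In both libraries every germ class stood above every somatic class.

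*Hsp90ab1*, the constitutive HSP90, was far more even over the classes compared. Among them it ranged from 2097 CPM (myoid-like) to 3447 CPM (germ barcodes under 10000 UMIs) in control, and from 2226 CPM (Leydig-like) to 3746 CPM in vKO. The highest of these classes was thus 1.64-fold and 1.68-fold the lowest. The neutrophil-like cluster, left out of this order, was lower, at 1568 CPM in control and 1385 CPM in vKO. So was the pericyte-like cluster, at 1570 and 1679 CPM. At the low end of the order, Leydig-like cells did not differ from stromal- or myoid-like cells beyond counting error in control, nor from myoid-like cells in vKO. It was found in over 97% of cells in each of the 6 main classes of both libraries.

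*Hspa8*, the constitutive HSP70 of the cytosol, was at 1665 CPM in control and 1961 CPM in vKO GFRA1/RET germ cells and at 1565 and 1826 CPM in KIT/STRA8 germ cells. Leydig-like cells, at 1705 and 1854 CPM, were in the same range. Sertoli-like cells had 1257 and 1242 CPM, stromal-like cells 1193 and 1319 CPM, and myoid-like cells the lowest level, 992 and 1079 CPM. The germ level was 1.33-fold that of Sertoli-like cells in control and 1.58-fold in vKO.

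*Hsph1*, the HSP110 nucleotide exchange factor, followed the germ pattern at a low level. It was at 47.8 CPM in control and 60.7 CPM in vKO GFRA1/RET germ cells and at 42.1 and 62.1 CPM in KIT/STRA8 germ cells, the last from 36 UMIs. Sertoli-, stromal- and myoid-like cells lay between 20.8 and 24.9 CPM in control and between 21.7 and 23.0 CPM in vKO. The germ cells were thus 1.92-fold (1.76 to 2.10) above Sertoli-like cells in control and 2.64-fold (2.39 to 2.91) in vKO.

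*Hspa5* encodes BiP, the HSP70 of the endoplasmic reticulum, which binds newly made secreted proteins and is induced by the unfolded protein response. Germ cells were lowest rather than highest for this gene. Among the classes compared, Leydig-like (771 and 810 CPM), stromal-like (734 and 865 CPM) and myoid-like cells (648 and 777 CPM) were highest. Sertoli-like cells had 449 and 522 CPM, and GFRA1/RET and KIT/STRA8 germ cells had 314 to 330 CPM over both libraries. The neutrophil-like cluster, left out of this order, stood above all of these in control, at 887 CPM, but had 630 CPM in vKO. The pericyte-like cluster had 520 and 598 CPM. Leydig- and stromal-like cells did not differ beyond counting error in control.

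*Hspa2*, the HSP70 known for its part in meiosis and sperm, was highest not in germ cells but in myoid-like cells, at 82.5 CPM (76.2 to 89.1) in control and 98.3 CPM (93.3 to 104) in vKO. The germ cells of at least 10000 UMIs lay below myoid-like cells: KIT/STRA8 cells had 28.9 and 20.7 CPM and GFRA1/RET cells 16.6 and 10.6 CPM. Control KIT/STRA8 cells were 1.74-fold (1.49 to 2.03) above GFRA1/RET cells. A UMI was found in 61.8% of control and 56.0% of vKO myoid-like cells, against 45.1% and 28.7% of GFRA1/RET germ cells, which were much deeper. At 2000 UMIs per cell the shares were 14.1% and 16.9% in myoid-like cells and 3.8% and 0.990% in GFRA1/RET germ cells. The germ barcodes under 10000 UMIs had 29.9 CPM in control and 71.5 CPM in vKO, the last from 13 UMIs and not apart from myoid-like cells beyond counting error. Stromal-like cells had 31.4 and 41.9 CPM and Sertoli-like cells 25.8 and 22.8 CPM. Control KIT/STRA8 germ cells did not differ from Leydig-like cells, at 27.6 CPM, beyond counting error.

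*Dnajb1* was highest in stromal-like cells, at 111 CPM (105 to 116) in control and 219 CPM (214 to 225) in vKO. In the control library the other classes lay within 37.3 and 55.1 CPM, and from Leydig-like down to Sertoli-like cells no neighbours in the order differed beyond counting error. Classes farther apart in the order could differ: GFRA1/RET germ cells had 54.5 CPM (51.1 to 58.0) and Sertoli-like cells 37.3 CPM (35.7 to 38.9). In the vKO library Leydig-like cells came next, at 134 CPM, above GFRA1/RET germ cells at 61.4 CPM and Sertoli-like cells at 39.2 CPM.

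The inducible pair *Hspa1a* and *Hspa1b* encodes nearly the same HSP70 protein from 2 genes that lie side by side on chromosome 17. In the GENCODE annotation of GRCm38, *Hspa1a* spans chr17:34969190-34972156 and *Hspa1b* chr17:34956436-34959238, both on the minus strand. Their sequences are shown here because the copies are so alike upstream of their starts and yet differ in level between cell classes. The 250 bases before the start of transcription, from RefSeq on GRCm38.p6 (chr17:34972157-34972406 and chr17:34959239-34959488, minus strand), are given 5′ to 3′, with matches to the 2-unit heat shock element GAANNTTC or TTCNNGAA in capitals.
Hspa1a: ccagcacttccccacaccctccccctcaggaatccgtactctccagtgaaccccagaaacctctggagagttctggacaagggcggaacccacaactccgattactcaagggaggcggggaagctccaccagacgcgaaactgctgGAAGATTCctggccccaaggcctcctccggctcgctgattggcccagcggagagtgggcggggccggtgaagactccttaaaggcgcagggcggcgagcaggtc
Hspa1b: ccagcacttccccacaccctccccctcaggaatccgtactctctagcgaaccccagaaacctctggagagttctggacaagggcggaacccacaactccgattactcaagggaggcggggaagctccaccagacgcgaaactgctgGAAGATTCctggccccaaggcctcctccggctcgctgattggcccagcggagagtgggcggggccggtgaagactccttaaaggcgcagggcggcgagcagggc
The 2 stretches differ at 3 of 250 bases (98.8% identity), written as the *Hspa1a* base, the position counted from 1 at the 5′ end, and the *Hspa1b* base: C44T, T47C and T249G. Both hold the same match, GAAGATTC, 104 to 97 bases before the start. Since the coding parts of the copies are also near-identical, reads there cannot be placed, and UMIs of the 2 genes rest on reads that differ. Their split is to that extent uncertain.

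*Hspa1a* was at 36.2 CPM (34.6 to 37.9) in control and 31.0 CPM (29.9 to 32.1) in vKO Sertoli-like cells. Stromal-like cells had 32.2 and 19.5 CPM and Leydig-like cells 34.9 and 68.8 CPM, whereas GFRA1/RET germ cells had 8.32 and 4.26 CPM. *Hspa1b* was ordered otherwise. Stromal-like cells were highest in control, at 37.6 CPM, and had 24.6 CPM in vKO, against 12.4 and 10.6 CPM in Sertoli-like cells, 16.5 and 41.9 CPM in Leydig-like cells, and 6.70 and 4.01 CPM in GFRA1/RET germ cells.

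As a ratio of UMIs, *Hspa1a* over *Hspa1b* was 2.93 (2.68 to 3.21) in control and 2.92 (2.72 to 3.13) in vKO Sertoli-like cells. It was 0.857 (0.755 to 0.972) and 0.792 (0.702 to 0.892) in stromal-like cells, and 1.24 (0.970 to 1.59) and 1.06 (0.640 to 1.76) in GFRA1/RET germ cells. Myoid-like cells had 1.81 (1.31 to 2.54) and 1.44 (1.13 to 1.83), and Leydig-like cells 2.11 (1.18 to 3.93) and 1.64 (1.28 to 2.12). Within a class the libraries gave overlapping intervals, and the intervals of Sertoli-like and stromal-like cells lay far apart in both. The part of reads that match both copies in these ratios was not tested.

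**Figure D3:**
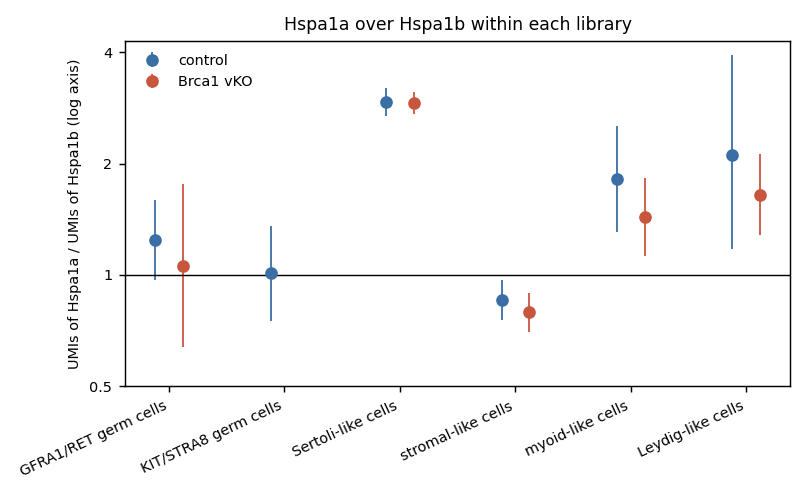
UMIs of *Hspa1a* divided by UMIs of *Hspa1b* (log axis) in 6 cell classes, control in blue and *Brca1* vKO in red, with 95% intervals for counting error. vKO KIT/STRA8 germ cells had 2 UMIs of each gene and are not drawn. Sertoli-like cells lie at 2.93 and 2.92, and stromal-like cells lie below 1 in both libraries.

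In single cells at full depth, the pair was spread differently by class. A UMI of *Hspa1a* was found in 51.8% of control Sertoli-like cells and in 22.3% of control stromal-like cells, which had similar levels. The Sertoli-like cells were deeper, with a median of 18727 UMIs against 16183 UMIs in control. After each cell was thinned to 2000 UMIs, the shares were 6.86% (5.79 to 8.06) and 5.53% (4.09 to 7.29), with overlapping intervals. Thinning left only 144 and 62 UMIs of *Hspa1a*, so that these shares mostly follow the level and tell little about its spread over cells. The 50% of *Hspa1a* UMIs in the highest cells came from 275 of 2015 Sertoli-like cells but from 31 of 855 stromal-like cells. Across single cells the Pearson correlation of *Hspa1a* with *Hspa1b* (log2 of CPM + 100, same cells and depth) was 0.385 over 855 control and 0.229 over 1982 vKO stromal-like cells, and 0.557 over 47 and 0.673 over 112 Leydig-like cells. For control and vKO it was 0.237 and 0.0445 in GFRA1/RET germ cells and 0.189 and 0.0843 in myoid-like cells. Sertoli-like cells had the lowest values, 0.0478 and 0.0325. In control stromal-like cells 49.2% of the cells with *Hspa1a* also had *Hspa1b*, against 22.1% of the cells without it. In Sertoli-like cells these shares were 30.7% and 18.1%.

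For the other genes, the RefSeq promoter table on GRCm38.p6 held *Hspa5*, *Hspb1*, *Dnajb1*, *Hsph1* and *Hspa2*, so that 7 of 10 genes were matched. *Hspb1* (chr5:135887669-135887918, plus strand), the gene of Sertoli-like cells, and *Dnajb1* (chr8:83607925-83608174, plus strand, the first of its starts), the gene with the largest stromal difference between libraries, are shown in full.
Hspb1: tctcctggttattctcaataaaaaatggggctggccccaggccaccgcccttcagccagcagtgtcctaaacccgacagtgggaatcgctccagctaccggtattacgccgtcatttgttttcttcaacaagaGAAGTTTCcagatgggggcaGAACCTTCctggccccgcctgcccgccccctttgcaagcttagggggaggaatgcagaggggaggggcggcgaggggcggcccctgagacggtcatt
Dnajb1: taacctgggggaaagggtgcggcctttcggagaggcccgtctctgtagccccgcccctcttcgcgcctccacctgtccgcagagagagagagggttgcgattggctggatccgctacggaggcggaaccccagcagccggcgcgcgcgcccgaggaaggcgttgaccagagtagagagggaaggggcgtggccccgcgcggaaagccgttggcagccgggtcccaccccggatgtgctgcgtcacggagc
*Hspb1* held 2 matches to the 2-unit element, GAAGTTTC and GAACCTTC, and *Dnajb1* held none in these letters. For *Hsph1* (chr5:149636351-149636380, minus strand) and *Hspa5* (chr2:34772020-34772049, plus strand), 30 bases around the match are shown, since longer transcript models begin farther upstream.
Hsph1: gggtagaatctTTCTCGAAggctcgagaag
Hspa5: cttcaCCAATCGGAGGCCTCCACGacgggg
The capitals mark TTCTCGAA in *Hsph1* and, in *Hspa5*, the ER stress response element, which is CCAAT and CCACG with 9 bases between them. *Hspa2* held neither motif, but its window (chr12:76404120-76404369, plus strand) lies mostly inside the GENCODE gene, which starts at 76404176. Bases farther upstream were not searched. Of 32851 promoters in the table, 12.8% held the 2-unit heat shock element in this window, 0.466% held a run of 3 units, which none of the genes did, and 0.113% held the ER stress response element on either strand. A match is a description of letters and not a shown binding site.

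**Figure D4:**
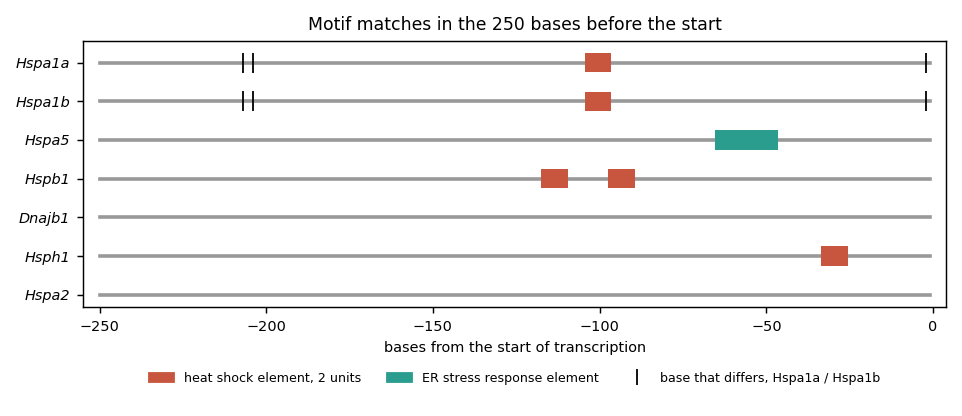
Positions of motif matches in the 250 bases before the start of transcription (x axis, bases from the start) for the 7 genes in the RefSeq promoter table, 1 start per gene. Red boxes are 2-unit heat shock elements, the green box is the ER stress response element, and black ticks are the 3 bases that differ between *Hspa1a* and *Hspa1b*. The shared match of the pair lies 104 to 97 bases before the start. *Dnajb1* and *Hspa2* have no match in their windows, and that of *Hspa2* lies mostly inside its GENCODE gene.

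The second question was which levels differed between the libraries within a class. A gene was counted when its CPM ratio, vKO over control, was at least 1.5-fold in either direction. No gene of the 10 passed this fold in all 6 main classes. *Hsp90ab1* was above 1 in each, at 1.04 to 1.12. *Hspa1a* and *Hspa1b* were lower in vKO germ and stromal-like cells and higher in vKO Leydig-like cells, and *Dnajb1* was higher in vKO stromal- and Leydig-like cells.

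**Figure D5:**
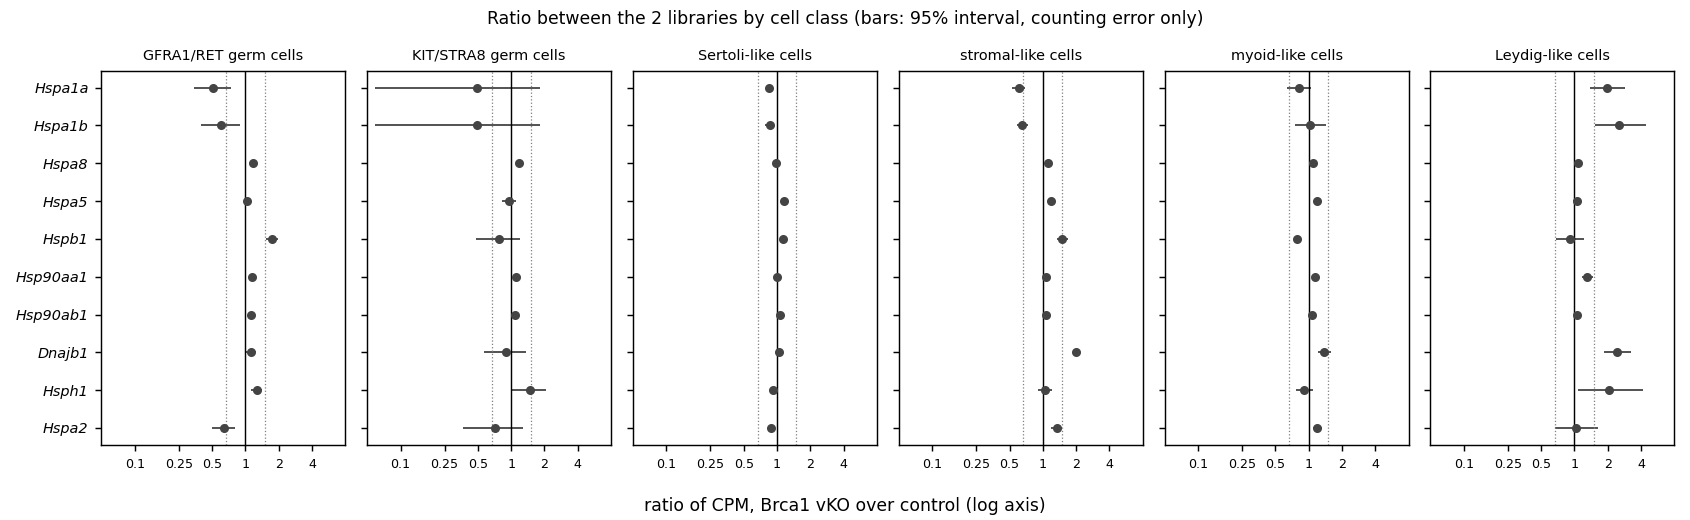
Ratio of CPM, *Brca1* vKO over control (log axis), for the 10 genes in 6 cell classes. Bars are 95% intervals for counting error, the solid line marks 1 and the dotted lines mark 1.5-fold in each direction. All 10 genes lie inside the dotted lines in Sertoli- and myoid-like cells, and *Dnajb1* lies at 1.98 in stromal-like and 2.44 in Leydig-like cells.

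In Sertoli-like cells, the largest class, 0 of 10 genes passed 1.5-fold, against 2.84% of all genes with at least 50 UMIs higher and 3.39% lower. The ratios ran from 0.855 (0.808 to 0.905) for *Hspa1a* and 0.859 (0.779 to 0.947) for *Hspa1b* to 1.14 (1.12 to 1.15) for *Hspb1* and 1.16 (1.14 to 1.18) for *Hspa5*. *Hsp90aa1* was at 0.994 and *Hspa8* at 0.988. Both Sertoli-like clusters gave *Hspa1a* ratios below 1, at 0.873 and 0.857.

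Of the other HSF1 targets, 25 genes in all, 0 passed 1.5-fold in Sertoli-like cells. The highest ratio was that of *Bag3*, the HSP70 co-chaperone of selective autophagy (5.58 CPM in control, 8.15 CPM in vKO, ratio 1.46). The lowest were those of *Hspe1*, the mitochondrial co-chaperonin (307 and 271 CPM, 0.881), and *Hspbap1* (9.77 and 9.20 CPM, 0.942). Of 20 other ER stress genes 0 passed as well, with *Manf* (357 and 441 CPM, 1.23) and *Sdf2l1* (10.2 and 12.5 CPM, 1.22) highest and *Trib3* (1.05 and 0.709 CPM, 0.673) and *Sel1l* (46.5 and 43.5 CPM, 0.935) lowest. Of the heat shock factors, *Hsf1* was at 26.2 and 27.8 CPM (ratio 1.06) and *Hsf2* at 43.6 and 45.5 CPM (1.05), with *Hsf3* (0.964) and *Hsf5* (1.15) each under 1 CPM. Of 22 immediate early genes 1 was higher, *Egr3* (4.41 and 6.92 CPM, 1.57). *Klf2* followed at 1.38, and *Myc* (0.814) and *Ier3* (0.826) were lowest. The summed level of these 22 genes was 7940 CPM in control and 9369 CPM in vKO Sertoli-like cells.

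In stromal-like cells, 2 of 10 genes were at least 1.5-fold higher in the vKO library and 2 at least 1.5-fold lower, against 2.67% and 2.35% of all genes. *Dnajb1* was at 111 CPM in control and 219 CPM in vKO, a ratio of 1.98 (1.87 to 2.10). Both stromal-like clusters showed it, at 2.02 (1.89 to 2.15) in the larger one and 1.82 (1.60 to 2.07) in the one led by *Pclaf*, a gene of DNA replication. The median cell had 32.0 CPM in control and 67.9 CPM in vKO, and a UMI was found in 14.6% and 22.2% of cells thinned to 2000 UMIs. In both libraries a minority of cells carried much of it, with 50% of the UMIs in 6.43% of control and 7.01% of vKO cells. *Hspa1a* went the other way, from 32.2 to 19.5 CPM, a ratio of 0.604 (0.531 to 0.687), and *Hspa1b* had a ratio of 0.654 (0.582 to 0.735). Without the single highest cell of each library these were 0.605 and 0.662. *Hspa1a* was alike in the larger and smaller cluster, at 0.600 and 0.571, whereas *Hspa1b* was at 0.625 (0.552 to 0.707) and 0.834 (0.578 to 1.21), the last under the fold.

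*Hspb1* was at 29.6 CPM in control and 44.5 CPM in vKO stromal-like cells, a ratio of 1.505 (1.34 to 1.69). The larger cluster was at 1.40 (1.23 to 1.60), under the fold, and the smaller one at 1.95 (1.54 to 2.49). The 7 Sertoli markers were higher there as well, 7 of 7, with a summed ratio of 1.47 (1.41 to 1.53). Their part in the *Hspb1* value was not tested. Of the 25 other HSF1 targets, 0 passed 1.5-fold in stromal-like cells, 0 of 19 ER stress genes did, and 1 of 22 immediate early genes did, which was *Egr3* (38.7 and 58.8 CPM, 1.52). The summed immediate early genes were at 21449 CPM in control and 25680 CPM in vKO. *Hspa5* was at 1.18 (1.15 to 1.21) and *Hspa2* at 1.34 (1.20 to 1.49), which was 1.24 (1.09 to 1.41) in the larger and 1.78 (1.40 to 2.27) in the smaller cluster. Haemoglobin transcripts, a record of free RNA from red blood cells, were at 1175 CPM in control and 114 CPM in vKO stromal-like cells, and their part in these values was not tested.

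In Leydig-like cells, 4 of 10 genes were at least 1.5-fold higher in the vKO library and 0 lower, against 8.04% and 6.56% of all genes. *Hspa1a* was at 34.9 CPM in control and 68.8 CPM in vKO, a ratio of 1.97 (1.38 to 2.88), *Hspa1b* at 16.5 and 41.9 CPM, 2.53 (1.53 to 4.44), *Dnajb1* at 55.1 and 134 CPM, 2.44 (1.85 to 3.27), and *Hsph1* at 11.03 and 22.5 CPM, 2.04 (1.08 to 4.19). The control values rest on 38, 18, 60 and 12 UMIs in 47 cells. A single control cell held 14 of the 38 *Hspa1a* UMIs, and without the highest cell of each library the ratio was 2.85 (1.85 to 4.58). Among the vKO cells 50% of the *Hspa1a* UMIs lay in 11 of 112.

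Across the 112 vKO Leydig-like cells *Hspa1a* had a Pearson correlation of 0.538 with the mitochondrial percentage, and over the 47 control cells 0.282. The median mitochondrial percentage was 5.06% in control and 3.84% in vKO. *Hsp90aa1* was at 1.30 (1.16 to 1.46), and the other 5 genes lay between 0.908 and 1.09. Of 22 other HSF1 targets, 3 were higher and 1 lower. They are named here after their values were seen: *Cryab*, a small heat shock protein of the lens and muscle (19.3 and 41.5 CPM, 2.15), *Ahsa1*, which activates the ATPase of HSP90 (55.1 and 90.6 CPM, 1.64), *Fkbp4*, an HSP90 co-chaperone of steroid receptors (130 and 206 CPM, 1.58), and *Dnajb4*, which was lower (75.3 and 49.5 CPM, 0.657). Of 22 immediate early genes 1 passed, *Klf4* (1.82), and of 18 ER stress genes 1, *Edem1* (1.53). Of other cells' markers, those of Sertoli cells stood at 1584 CPM in control and 1074 CPM in vKO Leydig-like cells, lower for 7 of 7. The 5 stromal markers stood at 820 and 1464 CPM, higher for 5 of 5, which is 10.4% and 19.7% of their level in stromal-like cells. The part of either in the *Dnajb1* and *Hspa1b* values was not tested.

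In myoid-like cells 0 of 10 genes passed, against 3.64% of all genes higher and 2.4% lower. *Dnajb1* was nearest, at 40.2 CPM in control and 55.7 CPM in vKO, a ratio of 1.39 (1.21 to 1.58). *Hspa5* (1.20, 1.16 to 1.24) and *Hspa2* (1.19, 1.09 to 1.31) were higher, *Hspb1* was lower (0.793, 0.736 to 0.854), and *Hspa1a* (0.817) and *Hspa1b* (1.03) had intervals that held 1. Of the immediate early genes 5 of 22 passed upward, namely *Fosb*, *Egr1*, *Egr2*, *Egr3* and *Ier2*, with ratios of 1.51 to 1.59. The ER stress list had 1 of 19, *Ddit3* (36.6 and 69.9 CPM, 1.91), the gene of the proapoptotic factor CHOP, and the HSF1 targets had 0 of 24. These genes outside the rule were named after their values were seen.

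In GFRA1/RET germ cells, where the deletion was made, 1 of 10 genes was at least 1.5-fold higher in the vKO library and 3 were lower, against 9.63% and 11.2% of all genes. The abundant chaperones were slightly higher, with a ratio of 1.18 (1.16 to 1.20) for *Hspa8*, 1.14 (1.12 to 1.16) for *Hsp90aa1* and 1.12 (1.10 to 1.13) for *Hsp90ab1*, and the less abundant *Hsph1* was at 1.27 (1.13 to 1.42). *Hspa5* was at 1.04 (0.9953 to 1.09) and *Dnajb1* at 1.13 (1.01 to 1.26). *Hspa1a* was at 8.32 CPM (149 UMIs) in control and 4.26 CPM (35 UMIs) in vKO, a ratio of 0.511 (0.343 to 0.743). *Hspa1b* was at 6.70 and 4.01 CPM, 0.598 (0.394 to 0.886), and *Hspa2* at 16.6 and 10.6 CPM, 0.637 (0.496 to 0.812). With 22.8% of control and 9.90% of vKO cells holding a UMI of *Hspa1a*, most germ cells of both libraries had none at a median of 45858.5 and 37239.5 UMIs per cell.

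The gene past the fold upward was *Hspb1*, at 31.7 CPM in control and 55.7 CPM in vKO, a ratio of 1.75 (1.55 to 1.99). All 7 Sertoli markers were higher in these vKO germ cells too, with a summed ratio of 1.37 (1.31 to 1.42), and the share of cells marked as doublets was 6.25% in control and 12.4% in vKO. With marked doublets removed the summed markers had a ratio of 0.986 (0.933 to 1.04), and *Hspb1* had one of 1.40 (1.19 to 1.64), which is under the fold. The 5 neutrophil markers were at 1.51 CPM in control and 232 CPM in vKO GFRA1/RET germ cells, higher for 5 of 5, and their part was not tested.

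The other lists moved apart in GFRA1/RET germ cells. Of 21 immediate early genes, 13 were at least 1.5-fold higher and 0 lower, and their sum was 1610 CPM in control and 2462 CPM in vKO. The 5 stromal markers stood at 98.3 CPM in control and 158 CPM in vKO GFRA1/RET germ cells, higher for 4 of 5 (*Col3a1* 14.7 and 47.8 CPM), which is 1.25% and 2.12% of their level in stromal-like cells, where immediate early genes were far higher. Their part in this list and in *Serpinh1* was not tested. *Egr3* (6.70 and 22.0 CPM, 3.28) and *Btg2* (105 and 248 CPM, 2.35) had the highest ratios, and *Klf4* (1.03) and *Ier3* (1.11) the lowest. The median log2 ratio of this list was 0.72, against -0.01 over all genes and 0.17 over the 10 heat shock protein genes. Of 24 other HSF1 targets, 2 passed upward, *Bag3* (7.21 and 13.4 CPM, 1.86) and *Serpinh1*, the collagen chaperone (31.4 and 49.4 CPM, 1.57), and 0 downward, with *Hspa4l* (0.838) and *Hsbp1* (0.844) lowest. Of 20 ER stress genes, *Ddit3* (10.8 and 34.0 CPM, 3.16) and *Edem1* (13.02 and 21.2 CPM, 1.62) were higher, *Trib3* (3.97 and 1.58 CPM, 0.398) was lower, and *Sdf2l1* was at 0.817. *Hsf1* was at 33.1 and 36.0 CPM (1.09, 0.943 to 1.25) and *Hsf2* at 71.0 and 49.5 CPM (0.697, 0.622 to 0.780). Of the 5 heat shock factor genes with enough UMIs, 0 passed the fold. *Hsf5* was at 0.952 and *Hsf2bp*, which encodes a partner of HSF2 known for meiotic recombination, at 0.865.

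In KIT/STRA8 germ cells the vKO library had 14 cells, which limits any ratio. *Hspa1a* and *Hspa1b*, 2 of 10 genes, were lower by the 1.5-fold rule, against 23.7% of all genes, and 0 were higher, against 9.33%. Each had 2 vKO UMIs, and the intervals of 0.0584 to 1.82 and 0.0590 to 1.84 held 1. *Hspa8* (1.17, 1.10 to 1.24), *Hsp90aa1* (1.10, 1.04 to 1.17) and *Hsp90ab1* (1.07, 1.02 to 1.12) were above 1, but 1 of the 14 vKO cells held 18.2% to 23.1% of their UMIs. Without the highest cell of each library they were at 1.05 (0.980 to 1.13), 1.06 (0.9953 to 1.13) and 0.991 (0.941 to 1.04), so that each interval held 1. *Hsph1* was at 1.48 (1.02 to 2.07) and *Hspa2* at 0.717 (0.367 to 1.27). The lists gave 8 higher and 4 lower of 20 immediate early genes, 2 and 2 of 23 HSF1 targets, 1 and 1 of 19 ER stress genes, and 0 and 1 of 4 heat shock factor genes (*Hsf5*, with 0 vKO UMIs). Of the heat shock factor genes with enough UMIs in stromal-like (3), myoid-like (2) and Leydig-like cells (2), 0 passed.

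To place each gene among all others, the pattern of log2(CPM + 10) over the 18 sums (9 classes in 2 libraries) was compared with those of 18856 genes of at least 50 UMIs. The sums share cells' depth and libraries, so the correlations describe likeness only. *Hsp90aa1* was most like *Thoc3* and *Anp32b* (Pearson r of 0.989 each) and *Nol12* (0.988), and *Hsp90ab1* was most like *Sumo2* (0.976), *Arfrp1* (0.974) and *Bax* (0.964). *Hspa8* was most like *Dnaja1* (0.961), a J-domain partner of HSP70, then *Hmox1* (0.946) and *Nsmce1* (0.942). *Hsph1* was nearest to *Abitram* (0.955), *Entpd3* (0.936) and *Adsl* (0.934), and *Hspa5* to *Malat1* (0.964), *Ostc* (0.961), a subunit of the oligosaccharyltransferase, and *Vps13d* (0.957).

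The nearest genes of *Hspb1* were *Nudt4* (0.949), *Rab4b* (0.916) and *Daam2* (0.903), and those of *Hspa2* were *Col8a2* (0.870), *Tnni2* (0.837) and *Kcnk2* (0.834). *Dnajb1* had the nearest genes *S100b* (0.876), *Ccdc81* (0.858) and *Tll1* (0.845). For the pair the lists did not share a gene: *Hspa1a* was most like *Rpp25* (0.920), *Pebp1* (0.914) and *Aldh1a1* (0.911), and *Hspa1b* most like *Gm21671* (0.924), *Gm7361* (0.902) and *Scn3b* (0.901).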

How the data were processed

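Testes of 1 control and 1 *Brca1* vKO mouse at PD7 were digested with collagenase IV and TrypLE and loaded on the 10× Genomics Chromium platform. The authors aligned the reads to mm10 and made the deposited tables, which hold raw UMI counts per gene and barcode, with Cell Ranger 6.0.2. No values per sample were left unused, and every barcode in the tables belonged to 1 of the 2 samples. The study's own analysis used Seurat 4.3.0.1 under R 4.2.3 per the labels.

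Following the study's methods, barcodes were filtered at 750 genes or more and 10% mitochondrial UMIs or fewer. The 2000 most variable genes, without the 10 heat shock protein genes and 73 related genes, gave 20 principal components, which were corrected for the library by Harmony's algorithm (theta 2, lambda 1, sigma 0.1, at most 10 rounds). Louvain clusters were computed at a resolution of 0.25 on 20 nearest neighbours and named by markers. Germ cells were split by at least 2 UMIs of *Gfra1* and *Ret* or of *Kit* and *Stra8*, whichever were more. A shallow cluster with germ markers (400 control and 56 vKO cells) was kept among the germ cells, mostly as barcodes under 10000 UMIs. The clusters left unnamed were another shallow one, one with 91.3% marked doublets and one with no clear marker. Doublets marked by Scrublet (150 control and 264 vKO cells) were kept except in an alternative.

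UMIs were summed per library and class and given as CPM with exact Poisson intervals, ratios with exact conditional intervals and shares of cells with exact Clopper-Pearson intervals, all at 95% (scipy 1.17.1, Python 3.11.15). They cover counting error only. The interval script was checked on simulated counts. Ratios were counted past 1.5-fold between libraries and 2-fold between classes for genes with at least 50 UMIs. TMM factors came from edgeR 4.0.16. No test between genotypes could be made with 1 library each, so no p-value is given.

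The genes named are the 10 genes, the markers, *Brca1*, *Hsf1* and *Hsf2*, the 3 genes most like each in pattern, and in each list (25 HSF1 targets, 20 ER stress genes, 22 immediate early genes, 6 heat shock factors) the 2 highest and 2 lowest ratios in Sertoli-like and GFRA1/RET germ cells. Genes outside this rule are leading genes of clusters and, in myoid- and Leydig-like cells and for *Egr3* in stromal-like cells, list genes past the fold, named after their values were seen. One gene that this rule names is not reported here. The genes and lists were chosen with earlier results of these data known. Haemoglobin genes were taken as a record of free RNA and not as a cell class, and cells were limited to 5% mitochondrial UMIs without new clustering, both decided after the data were seen. Gene positions are from GENCODE M21 and promoters from a RefSeq table, both on GRCm38, the assembly of mm10. Promoters of *Hspa8*, *Hsp90aa1* and *Hsp90ab1* were not analysed here.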

Additional observations from a re-analysis of the deposited data

Results flagged for a closer look

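*Hspa1a* and *Hspa1b* drew attention because the vKO over control ratio lay on opposite sides in different cell classes. For *Hspa1a* it was 1.97 in Leydig-like cells, 0.511 in GFRA1/RET germ cells and 0.604 in stromal-like cells. For *Hspa1b* it was 2.53 in Leydig-like cells, 0.598 in GFRA1/RET germ cells and 0.654 in stromal-like cells. Each class had 1 library per genotype, and the difference between classes was not tested.

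Barcodes that the comparisons did not use also differed. In the 250 control and 198 vKO barcodes removed for over 10% mitochondrial UMIs, *Hspa1a* was at 20.2 and 48.0 CPM, a ratio of 2.38, *Hspa1b* at 10.4 and 32.3 CPM, 3.10, and *Hspb1* at 109 and 251 CPM, 2.30. *Hspb1* was at 37.4 and 145 CPM in the neutrophil-like cluster of 51 and 142 cells, a ratio of 3.86, which also held the macrophage genes *C1qa* and *Pf4*. In the pericyte-like cluster of 48 and 69 cells it was at 28.2 and 206 CPM, a ratio of 7.32, from 15 control and 138 vKO UMIs. The cell types in the removed barcodes were not determined.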

How the results depend on the processing

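Of 14 ratios past 1.5-fold, 13 kept their direction in all 13 alternatives that give a ratio, some after thinning on very few UMIs. With at least 50 UMIs asked in each alternative, 2 stayed past the fold in all 13 (*Hspa1a* and *Dnajb1* in stromal-like cells) and 6 in the 12 without thinning, the others being *Hspa1a* in GFRA1/RET germ cells and *Hspa1a*, *Hspa1b* and *Dnajb1* in Leydig-like cells. The exception in direction was *Hspa1b* in GFRA1/RET germ cells, at 3.04 after thinning to 2000 UMIs, from 3 control and 5 vKO UMIs. Counts of genes past the fold moved by over 1.5 times as follows. With doublets removed, the higher count was 0 in GFRA1/RET germ cells, 1 in KIT/STRA8 germ cells and 1 in stromal-like cells. With the 5% mitochondrial limit, 1 gene was lower in GFRA1/RET and 1 higher in KIT/STRA8 germ cells, 2 were 2-fold lower in vKO GFRA1/RET germ than in Sertoli-like cells, and 2 were 2-fold lower in vKO KIT/STRA8 than in GFRA1/RET germ cells. After thinning, which leaves few UMIs, 0 were higher and 0 lower in GFRA1/RET germ cells. It left 1 lower in KIT/STRA8 germ cells (*Hspa5*), 1 higher in stromal-like (*Dnajb1*) and 1 higher in Leydig-like cells (*Hsp90aa1*). *Hspa5* and *Hsp90aa1* had not passed the fold in these classes before thinning. Without batch correction, 1 was higher in stromal-like and 1 in myoid-like cells (*Dnajb1* in both). With classes from marker UMIs, 1 was higher in KIT/STRA8 germ cells and 1 in myoid-like cells, and 1 was 2-fold higher in vKO KIT/STRA8 than in GFRA1/RET germ cells, as also with doublets removed or with cells weighted equally. Equal weights also gave 1 higher and 1 lower in stromal-like cells, and 2 that were 2-fold higher in control GFRA1/RET germ than in Sertoli-like cells. Cells of at least 10000 UMIs gave 1 higher in myoid-like cells. Some counts stayed while their genes changed. With the 5% limit, the 2 lower in KIT/STRA8 germ cells were *Hspa5* and *Hspb1* in place of *Hspa1a* and *Hspa1b*. With classes from marker UMIs, *Hspb1* took the place of *Hsph1* among the genes higher in Leydig-like cells. The cause was not tested, apart from the fewer UMIs after thinning. TMM and median ratio scaling shifted log2 ratios by at most 0.03. Leaving out each gene's highest cell was added after the data were seen. No paired analysis was possible because each genotype had 1 library. In vKO KIT/STRA8 germ cells, 14 cells limit every value.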
